A study of Mus musculus with 10 samples.

Results

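Expression of 9 cholesterol synthesis enzymes was examined in the crypts of the jejunum from 5 WT and 5 Arid3a cKO mice. The 9 genes, Hmgcs1, Mvd, Idi1, Fdps, Fdft1, Sqle, Lss, Cyp51 and Dhcr7, were taken by name and not by a cut on their values. The choice was made with earlier results of these data known. All 9 were found among the 54838 genes listed for each library, and all 9 were among the 14719 genes that passed the filter on low counts. Each library came from 1 animal. The cKO mice carried VillinCre-ERT2+/- and Arid3a fl/fl, so that Cre recombinase deletes Arid3a in epithelial cells that express Villin, while stromal and immune cells keep the gene. Both genotypes received tamoxifen on consecutive days and were culled 1 month after the first injection. The labels call the controls WT, and their alleles, the age and sex of the animals, their feeding and the hour of collection are not given in the sources used here. The animal identifiers begin with different letters in the WT and the cKO mice. What the letters stand for is not given, and it cannot be told apart from genotype. RNA of bulk crypts was measured, in which fewer cells of a type and less RNA per cell cannot be told apart.

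Cells make cholesterol from acetyl-CoA through the mevalonate pathway. Its early enzymes build isoprene units and join them into squalene, and its late enzymes close squalene into lanosterol and trim lanosterol to cholesterol. The genes of the pathway are textbook targets of SREBP2, a membrane-bound transcription factor encoded by Srebf2 that is released when sterols in the endoplasmic reticulum are low, and that binds sterol regulatory elements together with NF-Y, which recognises CCAAT boxes. In the small intestine, crypt cells and enterocytes are known to make sterols, and enterocytes also absorb them from the lumen.

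Promoters of 6 of the 9 enzymes could be matched in RefSeq (GRCm38.p6), Hmgcs1, Mvd, Idi1, Lss, Cyp51 and Dhcr7, while Fdps, Fdft1 and Sqle are named only. They are shown because the 9 transcripts varied together among animals, as described further on. Windows from 250 bases before to 50 bases after each annotated start were searched on both strands for TCACNCCAC (a sterol regulatory element), CCAAT (the NF-Y box, ATTGG on the other strand) and GGGCGG (the GC box). The motifs searched do not overlap one another in the sequences shown. Capitals mark TCACNCCAC and CCAAT or ATTGG. For Hmgcs1, Mvd and Lss the bases before the start that lie in no annotated exon are given, at chr13:119690101-119690350 on the + strand, chr8:122443423-122443672 on the - strand and chr10:76531355-76531587 on the + strand.
Hmgcs1: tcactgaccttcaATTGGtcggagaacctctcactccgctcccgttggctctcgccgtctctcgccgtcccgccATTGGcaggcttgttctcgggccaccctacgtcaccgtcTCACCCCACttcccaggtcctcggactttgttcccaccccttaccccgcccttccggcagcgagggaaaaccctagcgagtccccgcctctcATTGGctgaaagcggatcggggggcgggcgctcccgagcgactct
Mvd: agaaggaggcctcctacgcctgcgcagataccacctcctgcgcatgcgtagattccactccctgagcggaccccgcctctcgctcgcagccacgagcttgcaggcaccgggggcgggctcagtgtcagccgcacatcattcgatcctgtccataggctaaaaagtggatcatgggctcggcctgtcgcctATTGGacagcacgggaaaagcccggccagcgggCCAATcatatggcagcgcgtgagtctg
Lss: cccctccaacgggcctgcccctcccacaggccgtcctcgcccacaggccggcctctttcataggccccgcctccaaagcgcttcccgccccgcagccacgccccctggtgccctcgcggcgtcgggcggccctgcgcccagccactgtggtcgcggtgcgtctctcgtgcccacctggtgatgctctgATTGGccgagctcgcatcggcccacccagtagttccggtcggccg
For Idi1, Cyp51 and Dhcr7, whose boxes lie in exons annotated by GENCODE, 30 bases around 1 box are given, at chr13:8885548-8885577 on the + strand, chr5:4104710-4104739 on the - strand and chr7:143830116-143830145 on the + strand.
Idi1: ttgcctccagctgATTGGcgagcccgggca
Cyp51: ccgctgtccgccaCCAATctggtcctgaga
Dhcr7: ctcactgccttcaCCAATcacaggacgcag

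The 6 matched enzymes had 8 promoters. TCACNCCAC was found in 1 of the 8, that of Hmgcs1, 137 bases before the start, and in 1.24% of all 32851 promoters. CCAAT was found in 6 of the 8 promoters and in 37.4% of all promoters, and GGGCGG in 7 of the 8 and in 35.7%. Each of the 6 enzymes had at least 1 promoter with CCAAT and at least 1 with GGGCGG. In Dhcr7, CCAAT was found only at promoter 3, and the bases printed from it lie inside the annotated gene. These are matches of letters, and absence of a match concerns only the letters and windows searched.

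Library totals were 27050455 to 28152743 expected counts in WT and 28314069 to 31053622 in cKO animals. Arid3a itself was at 1.91 to 2.75 CPM (counts per 1000000 counts of the library, scaled by TMM) in WT and at 0.303 to 1.17 CPM in cKO libraries, with no overlap between the genotypes (log2 fold change -1.84 ± 0.316 (SE), edgeR adjusted p = 0.00204). Marker genes of stem cells and of Paneth cells, which sit at the crypt base, had summed levels of 3670 to 7720 CPM and 5550 to 13900 CPM. Olfm4 made up most of the stem cell sum (3310 to 7110 CPM), while Lgr5 was at 27.5 to 70.4 CPM. Over all genes, 4167 of 14719 passed the threshold of 0.05 on the adjusted p of edgeR's quasi-likelihood test (28.3%), 2298 higher in cKO (15.6%) and 1869 lower (12.7%). The split depended on the scaling. There were 2017 higher and 2627 lower with upper quartile factors, 1544 and 4030 when only library sizes were used, and 1411 and 2760 on log2(TPM + 1). The median log2 fold change of all genes moved from -0.03 to -0.08, -0.16 and -0.10 in these settings.

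Of the 9 enzymes, 0 passed that threshold, against 28.3% of all genes. At an unadjusted p under 0.05 there was 1 of 9, Sqle, against 40.5% of all genes. DESeq2 called Sqle (1 of 9, against 28.7% of all genes) and limma-voom did not (0 of 9, against 28.0%). All 9 had a lower fitted level in cKO crypts, with log2 fold changes from -0.55 to -0.07 and a median of -0.30, while 54.1% of all genes were fitted lower. The genotypes overlapped for every one of the 9 enzymes, whereas they did not overlap for 19.6% of all genes. The plot of CPM by animal shows this overlap. Without WT replicate 4 the median was -0.17 and 8 of the 9 were fitted lower, and without cKO replicate 4 it was -0.20 with 7 of 9.

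**Figure D1:**
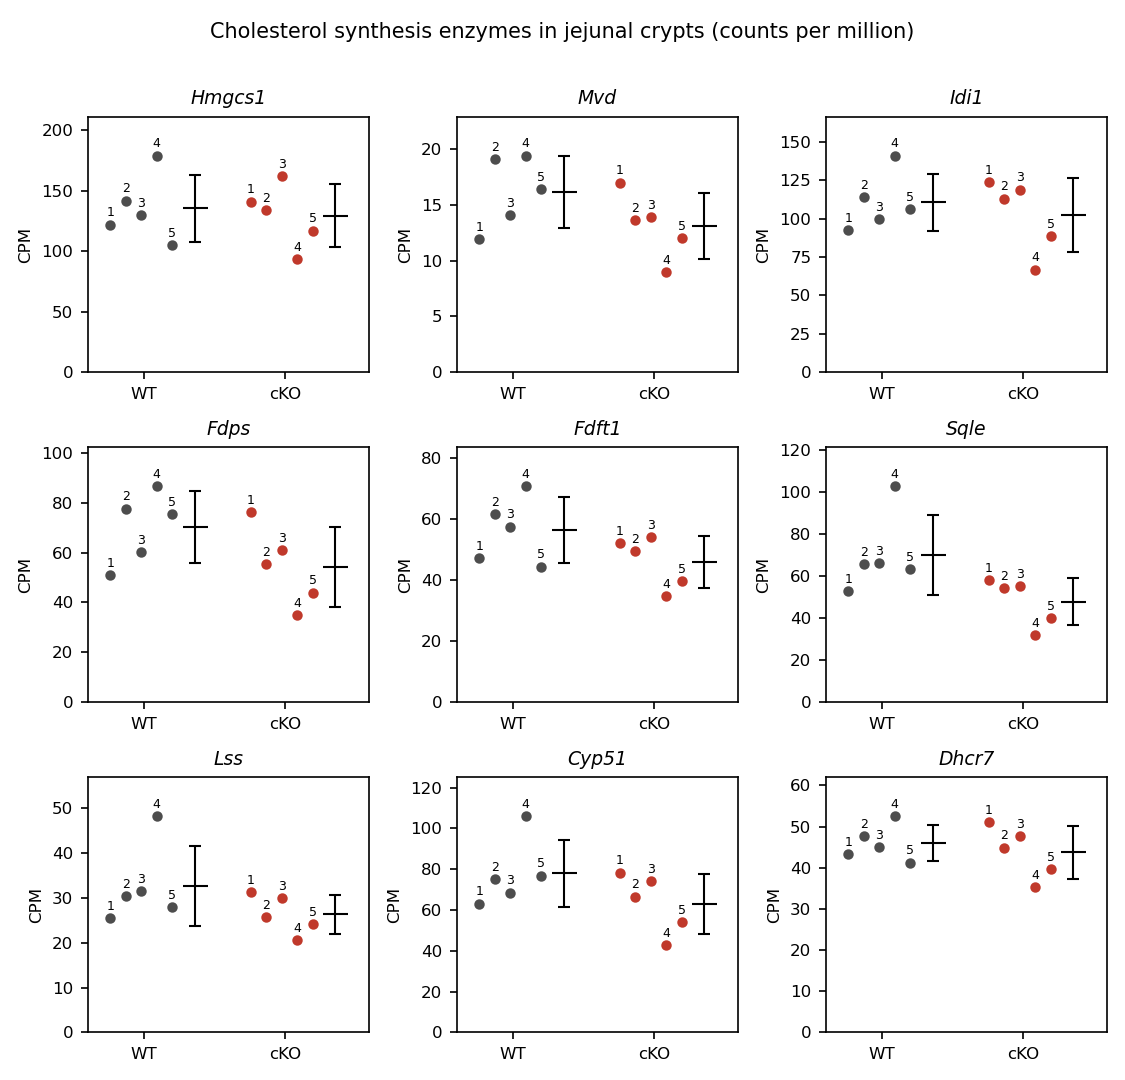
Level of each of the 9 enzymes in each library, in CPM on TMM-normalized library sizes, with the replicate number beside each point and the mean ± SD of 5 animals at the right of each group. WT replicate 4 was the highest WT library in all 9 panels and cKO replicate 4 the lowest cKO library in all 9.

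The early steps were examined first. Hmgcs1 (ENSMUSG00000093930, chr13:119690379-119708260, + strand) encodes the cytosolic synthase that makes HMG-CoA, from which mevalonate is formed. Hmgcs1 was at 122, 142, 130, 179 and 105 CPM in WT replicates 1 to 5 and at 141, 134, 162, 93.5 and 117 CPM in cKO replicates 1 to 5. The values were interleaved, with WT replicate 4 on top, cKO replicate 3 next and cKO replicate 4 at the bottom. The log2 fold change was -0.07 ± 0.16 (SE, 95% interval -0.42 to 0.28, edgeR adjusted p = 0.769), and it became 0.05 without WT replicate 4 and 0.03 without cKO replicate 4.

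Mvd (ENSMUSG00000006517, chr8:122433601-122443422, - strand) encodes the decarboxylase that turns mevalonate diphosphate into isopentenyl diphosphate, the first isoprene unit. Mvd was at 11.9, 19.1, 14.1, 19.4 and 16.4 CPM in WT and at 17.0, 13.6, 13.9, 8.94 and 12 CPM in cKO replicates. WT replicates 2 and 4 lay above all cKO libraries and cKO replicate 4 below all WT libraries, with the rest mixed. For Mvd the log2 fold change was -0.31 ± 0.173 (SE, 95% interval -0.68 to 0.07, edgeR adjusted p = 0.20). Mvd lies opposite Gm20388, which had 1217 to 1783 counts, and the strand setting of the counting is not given in the sources used here.

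Idi1 (ENSMUSG00000058258, chr13:8885501-8892451, + strand) encodes the isomerase that converts isopentenyl diphosphate into its allylic partner. Idi1 was at 92.5, 114, 99.9, 141 and 106 CPM in WT and at 124, 113, 119, 66.8 and 88.6 CPM in cKO replicates. cKO replicates 4 and 5 lay below all WT libraries, while the other cKO libraries lay inside the WT range. The log2 fold change was -0.11 ± 0.168 (SE, 95% interval -0.48 to 0.25, edgeR adjusted p = 0.641), and 0.01 without cKO replicate 4. Idi1 has 3 processed pseudogenes at least 90% identical to it, which held between 5.98% and 13.0% of the counts summed over gene and copies, and with their counts added the log2 fold change was -0.08. Its paralog Idi2 had no counts.

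Fdps (ENSMUSG00000059743, chr3:89093588-89101959, - strand) encodes the synthase of farnesyl diphosphate, the branch point to sterols, ubiquinone, dolichol and prenylated proteins. Fdps was at 51.0, 77.6, 60.1, 86.7 and 75.5 CPM in WT and at 76.3, 55.4, 61.1, 34.8 and 43.9 CPM in cKO replicates. It had the widest spread of the 9 enzymes, with cKO replicate 1 in the upper part of the WT range and cKO replicates 4 and 5 below all WT libraries. Its log2 fold change was -0.37 ± 0.21 (SE, 95% interval -0.84 to 0.10, edgeR adjusted p = 0.212).

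The committed sterol steps follow. Fdft1 (ENSMUSG00000021273, chr14:63145150-63179578, - strand) encodes squalene synthase, which joins farnesyl units and commits carbon to sterols. Fdft1 was at 47.3, 61.7, 57.6, 70.9 and 44.5 CPM in WT and at 52.2, 49.5, 54.2, 34.7 and 39.7 CPM in cKO replicates. WT replicates 2, 3 and 4 lay above all cKO libraries and cKO replicates 4 and 5 below all WT libraries, while WT replicates 1 and 5 lay below cKO replicates 1, 2 and 3. The log2 fold change was -0.29 ± 0.151 (SE, 95% interval -0.62 to 0.04, edgeR adjusted p = 0.168), and it passed the threshold when libraries were scaled by their size only (log2 fold change -0.43, adjusted p = 0.0491, all-gene median -0.16). Transcripts of Fdft1 and of Ctsb on the opposite strand share 774 bases, and Ctsb had 10761 to 15139 counts per library.

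Sqle (ENSMUSG00000022351, chr15:59315077-59331192, + strand) encodes squalene epoxidase, a rate-limiting oxygen-dependent step of the sterol branch. Sqle was at 52.9, 65.9, 66.2, 103 and 63.4 CPM in WT and at 58.1, 54.3, 55.2, 32.0 and 40.1 CPM in cKO replicates. All WT libraries but replicate 1 lay above all cKO libraries, and WT replicate 1 lay below cKO replicates 1, 2 and 3. Sqle had the largest difference of the 9, with a log2 fold change of -0.55 ± 0.203 (SE, 95% interval -1 to -0.10, unadjusted p = 0.0206, edgeR adjusted p = 0.065). DESeq2 gave an adjusted p of 0.0207. Leaving out WT replicate 4 gave -0.37, and leaving out WT replicate 1 gave -0.64, past the edgeR threshold.

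Lss (ENSMUSG00000033105, chr10:76531588-76557138, + strand) encodes lanosterol synthase, which closes the sterol rings. Lss was at 25.5, 30.4, 31.5, 48.2 and 27.9 CPM in WT and at 31.3, 25.7, 30, 20.5 and 24.2 CPM in cKO replicates. WT replicate 4 stood apart at the top, and the other WT libraries shared their range with cKO replicates 1, 2 and 3. For Lss the log2 fold change was -0.31 ± 0.172 (SE, 95% interval -0.69 to 0.06, edgeR adjusted p = 0.195), and it was -0.13 without WT replicate 4.

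The late steps act on the sterol ring. Cyp51 (ENSMUSG00000001467, chr5:4081145-4104746, - strand) encodes the cytochrome P450 that removes the 14-alpha methyl group of lanosterol. Cyp51 was at 63.1, 75.2, 68.5, 106 and 76.9 CPM in WT and at 78.3, 66.6, 74.2, 42.7 and 54.0 CPM in cKO replicates. cKO replicates 4 and 5 lay below all WT libraries and WT replicate 4 above all cKO libraries, while cKO replicate 1 lay above 4 of the 5 WT libraries. The log2 fold change was -0.30 ± 0.18 (SE, 95% interval -0.70 to 0.09, edgeR adjusted p = 0.227), and -0.17 without WT replicate 4. Cyp51 shares bases with Akap9 on the opposite strand, which had 1891 to 3388 counts.

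Dhcr7 (ENSMUSG00000058454, chr7:143823145-143848410, + strand) encodes the reductase that makes cholesterol from 7-dehydrocholesterol, which is also the precursor of vitamin D. Dhcr7 was at 43.3, 47.6, 45, 52.5 and 41.2 CPM in WT and at 51.1, 44.9, 47.7, 35.2 and 39.6 CPM in cKO replicates. It was the steadiest of the 9, with the same libraries at the top and the bottom. Its fitted log2 fold change was -0.07 ± 0.104 (SE, 95% interval -0.30 to 0.15, edgeR adjusted p = 0.636).

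Next, the variation among animals of the same genotype was examined, since it was large for these enzymes. The SD of log2(CPM + 0.5) within genotypes had a median of 0.309 over the 9 enzymes, against 0.139 over the 6926 tested genes in the same range of mean CPM and 0.177 over all tested genes. It was widest for Fdps (0.375) and Sqle (0.358), which lay above 95.9% and 95.4% of the genes in that range, and narrowest for Dhcr7 (0.177, above 71.3%). Counts of 263 to 5349 per enzyme and library lay behind these values.

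The enzymes varied as a block. WT replicate 4 was the highest of the WT libraries for 9 of 9 enzymes and cKO replicate 4 the lowest of the cKO libraries for 9 of 9. cKO replicate 1 was the highest cKO library for 7 and cKO replicate 3 for the other two, while WT replicate 1 was the lowest WT library for 6 and WT replicate 5 for the other 3. The mean deviation of the 9 enzymes from their genotype mean, on the log2 scale, was -0.28, 0.07, -0.08, 0.40 and -0.11 in WT replicates 1 to 5. In cKO replicates 1 to 5 it was 0.30, 0.10, 0.22, -0.46 and -0.16. The map of deviations shows whole columns of 1 colour, in particular for WT replicate 4 and cKO replicates 1, 3, 4 and 5.

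**Figure D2:**
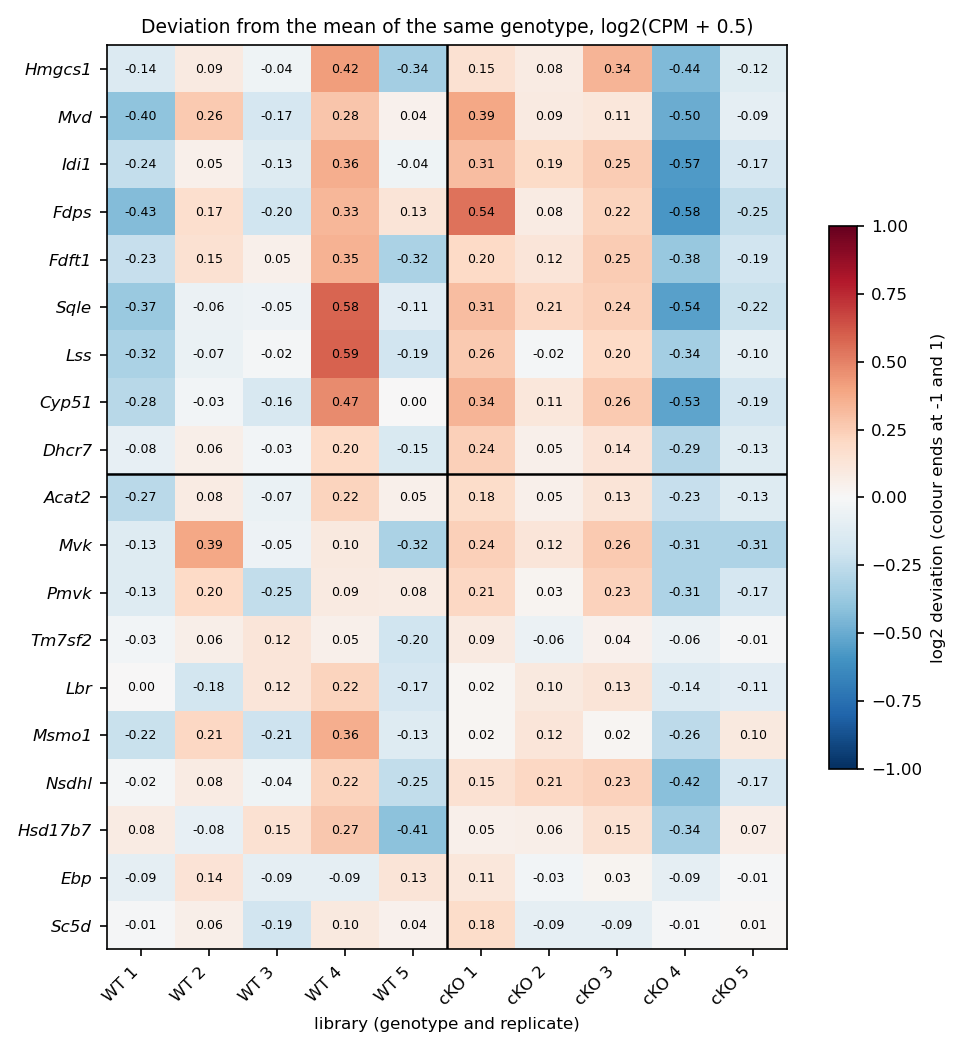
Deviation of each enzyme in each library from the mean of the 5 libraries of the same genotype, in log2(CPM + 0.5), with red above and blue below that mean. The 9 enzymes described are above the horizontal line and 10 other enzymes of the pathway below it, and the vertical line parts WT from cKO libraries. Among the 9, values run from 0.20 to 0.59 in WT replicate 4 and from -0.58 to -0.29 in cKO replicate 4.

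The deviations of each pair of the 9 enzymes correlated positively over the 10 libraries in 36 of 36 pairs. Pearson's r had a median of 0.88, from 0.71 for Hmgcs1 and Fdps to 0.98 for Idi1 and Cyp51, and Spearman's rho a median of 0.91. The median r was 0.83 in the 5 WT and 0.97 in the 5 cKO libraries. It was 0.84 over the 8 libraries left without WT replicate 4 and cKO replicate 4, the farthest from 0. These values are a description of 10 libraries that share their normalization across genes, and no p was computed for them.

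Among all 14710 other tested genes, the correlation with the mean deviation of the 9 enzymes had a median of 0.05, with 90% of genes between -0.65 and 0.66. Of the 10 most like it, 9 are named, Bdh1 (r = 0.97), 1810012K08Rik (0.95), Kansl2 (0.95), Acat2 (0.94), Srebf2 (0.93), 2300009A05Rik (0.93), Hnrnpl (0.92), Dffa (0.92) and Mtmr2 (0.92). Of these, Acat2 encodes the cytosolic thiolase of the first step and Srebf2 encodes SREBP2. 1810012K08Rik had a mean of only 0.348 CPM. The sterol sensor partner Insig1 had r = 0.90 and Tmem97 0.86. Srebf1, which encodes the SREBP form tied to fatty acid synthesis, had r = 0.17.

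Srebf2 was at 126, 129, 137, 162 and 131 CPM in WT and at 131, 115, 125, 98.9 and 113 CPM in cKO replicates, with a log2 fold change of -0.24 ± 0.0894 (SE, edgeR adjusted p = 0.0666), and it passed the threshold with upper quartile factors and when libraries were scaled by size only or in TPM.

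Levels between the enzymes were compared in TPM, which is scaled by gene length. By the mean over libraries the order was Fdps, Hmgcs1, Idi1, Sqle, Dhcr7, Fdft1, Cyp51, Lss and Mvd. Fdps was at 79.6 ± 17.3 TPM in WT and 57.2 ± 16.4 TPM in cKO (SD, n = 5), and Mvd at 12.6 ± 2.68 and 9.49 ± 2.04 TPM. Neighbours in the order were not separated in all libraries for Hmgcs1 above Idi1 (9 of 10 libraries), Sqle above Dhcr7 (6), Dhcr7 above Fdft1 (7), Fdft1 above Cyp51 (5) and Lss above Mvd (8). Sqle exceeded Dhcr7 in 5 of 5 WT libraries but in 1 of 5 cKO libraries.

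The 9 enzymes together took 279, 326, 311, 456 and 284 TPM in WT and 326, 260, 296, 193 and 221 TPM in cKO replicates. The means were 331 ± 72.3 in WT and 259 ± 54.0 TPM in cKO (SD, n = 5), and the genotypes overlapped, with WT replicate 4 on top and cKO replicates 4 and 5 at the bottom. The TPM of Lss also moved with the gene's effective length, which RSEM estimated between 2270 and 4274 bases. In WT replicate 2, where it was the longest, Lss had 8.87 TPM from 883 counts, and in WT replicate 1, where it was the shortest, 15 TPM from 733 counts.

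A list of 10 other enzymes between acetyl-CoA and cholesterol was then set beside the 9. Sc5d rose and Lbr fell in cKO crypts, and the remaining 8 did not pass the threshold (2 of 10 called, against 28.3% of all genes), with a list median of -0.05. Sc5d encodes the sterol desaturase that makes 7-dehydrocholesterol, the substrate of Dhcr7. Sc5d was at 53.2, 55.8, 46.7, 57.1 and 55.0 CPM in WT and at 83.0, 68.5, 68.5, 72.7 and 73.7 CPM in cKO replicates. All cKO libraries lay above all WT libraries, and the log2 fold change was 0.45 ± 0.0755 (SE, edgeR adjusted p = 0.00183), and between 0.41 and 0.48 when any 1 animal was left out.

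Lbr encodes a sterol reductase of the inner nuclear membrane that also anchors lamin and heterochromatin. Lbr was at 153, 135, 166, 178 and 136 CPM in WT and at 129, 136, 138, 114 and 117 CPM in cKO replicates, with overlap (log2 fold change -0.28 ± 0.091, SE, edgeR adjusted p = 0.0379). The call of Lbr was lost in 6 of the 10 fits that left out 1 animal, those without WT replicates 1, 3 and 4 and without cKO replicates 1, 4 and 5, with values from -0.28 to -0.22.

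The early enzymes Acat2, Mvk and Pmvk, which act before mevalonate diphosphate is decarboxylated, had log2 fold changes of -0.24, -0.12 and -0.29, none of which passed the threshold. Both Acat2 and Pmvk passed it when libraries were scaled by size only or in TPM, and Acat2 also with upper quartile factors, with effective length as an offset and without WT replicate 1. The late enzymes Tm7sf2, Msmo1, Nsdhl, Hsd17b7 and Ebp had values of 0.02, 0.16, -0.09, -0.01 and 0.18, and none passed. Tm7sf2 was below 0 with size only, in TPM, with upper quartile factors and with effective length as an offset. The correlation with the mean deviation of the 9 enzymes was 0.94 for Acat2, 0.76 for Mvk, 0.80 for Pmvk, 0.87 for Nsdhl and 0.77 for Msmo1. It was 0.62 for Lbr, 0.60 for Hsd17b7, 0.46 for Tm7sf2, 0.32 for Sc5d and 0.31 for Ebp. Without WT replicate 4 and cKO replicate 4, it stayed at 0.92 for Acat2, 0.79 for Mvk, 0.78 for Pmvk and 0.75 for Nsdhl, but was 0.52 for Msmo1, 0.34 for Lbr and 0.19 for Hsd17b7.

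**Figure D3:**
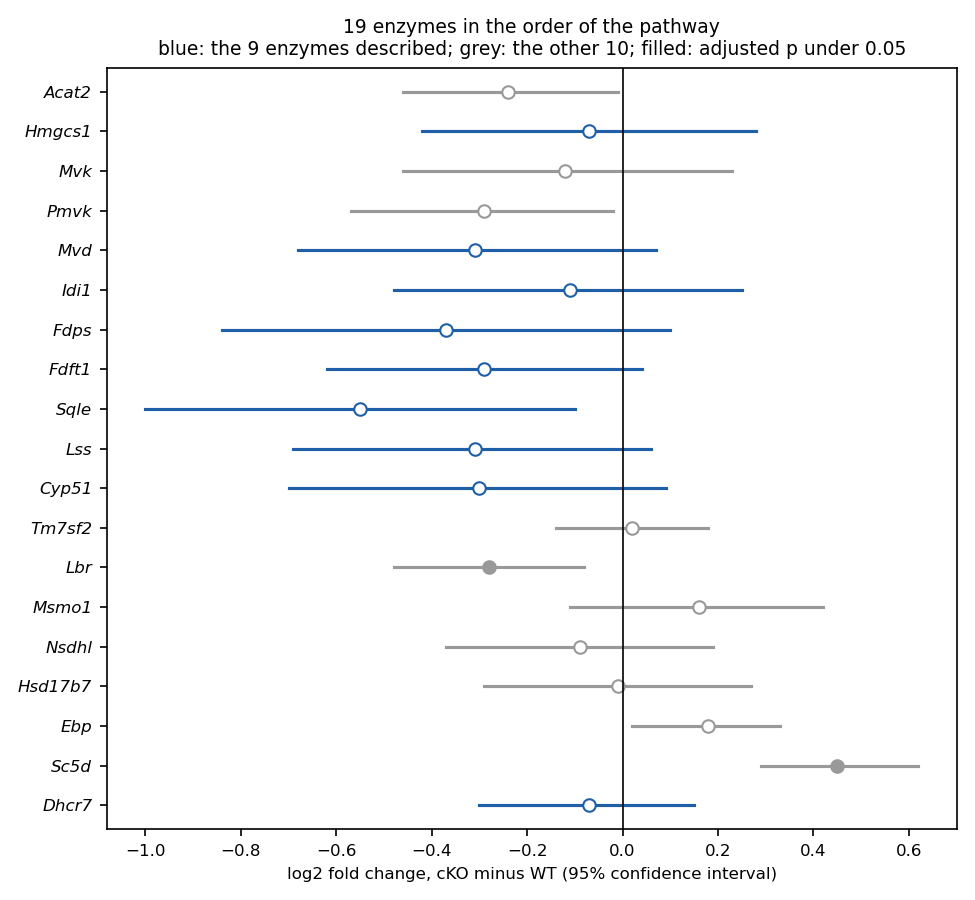
Log2 fold change of cKO against WT with its 95% confidence interval for enzymes from acetyl-CoA (top) to cholesterol (bottom), the 9 described in blue and 10 others in grey, filled where the edgeR adjusted p is under 0.05. All 9 blue points lie left of 0, and only Lbr and Sc5d are filled. The intervals were calculated back from the fold change and its unadjusted p.

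Of 8 genes that control SREBP processing, 2 rose (Insig2 and Rnf139) and 1 fell (Scap), a share of 37.5% near the 28.3% of all genes, and the median was -0.06. Insig2, which encodes a partner that holds SCAP and SREBP in the endoplasmic reticulum, averaged 17.5 ± 1.59 CPM in the WT and 23.3 ± 0.477 CPM in the cKO libraries (SD, n = 5), with no overlap (log2 fold change 0.41 ± 0.0761, SE, edgeR adjusted p = 0.00291). Scap, which encodes the SREBP escort protein, had a log2 fold change of -0.23 ± 0.0718 (SE, edgeR adjusted p = 0.029). Insig1, itself a target of SREBP, was at 72.3, 84.5, 91.5, 109 and 70.9 CPM in WT and at 93.9, 87.7, 101, 60.7 and 61.2 CPM in cKO replicates, interleaved like the enzymes. The call of Rnf139 was lost with upper quartile factors and when libraries were scaled by size only or in TPM. The call of Scap was lost without WT replicates 3 and 4 and without cKO replicates 2 to 5, each left out in turn, with values from -0.24 to -0.20.

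Of 6 genes of sterol uptake and transport, 2 rose (Npc1l1 and Stard4) and none fell, with a median of 0.19. Their share of 33.3% stands against 15.6% of all genes higher in cKO and 28.3% in either direction. Npc1l1, which encodes the cholesterol importer of the brush border, was at 92.1, 128, 61.7, 48.4 and 63.6 CPM in WT and at 221, 173, 155, 221 and 251 CPM in cKO replicates, with no overlap (log2 fold change 1.37 ± 0.26, SE, edgeR adjusted p = 0.00518). Stard4, which encodes a cytosolic sterol carrier, had a log2 fold change of 0.32 ± 0.0819 (SE, edgeR adjusted p = 0.0125), and its call was lost when libraries were scaled by size only or in TPM.

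Of 10 LXR targets and genes of sterol efflux and esterification, 6 rose (Nr1h3, Abca1, Abcg5, Abcg8, Soat2 and Cyp27a1) and none fell, with a median of 0.78. Their share of 60.0% stands against 15.6% of all genes higher in cKO and 28.3% in either direction. The rest of the list did not share the rise, and 3 of the 10 were fitted lower. Log2 fold changes were 0.01 for Nr1h2, -0.22 for Abcg1, -0.27 for Mylip and -0.11 for Soat1, none past the threshold. Abcg1 and Mylip were low, with means of 1.03 and 1.88 CPM in WT. Abcg5 and Abcg8 encode the partner subunits of the transporter that returns sterols to the lumen. In WT and cKO crypts, Abcg5 was at 42.8 ± 14.3 and 93.8 ± 16.5 CPM and Abcg8 at 31.2 ± 12.8 and 84.8 ± 17.4 CPM (SD, n = 5). Neither overlapped between the genotypes, with log2 fold changes of 1.13 ± 0.217 and 1.44 ± 0.279 (SE, edgeR adjusted p = 0.00498 and 0.00574). The call of Abca1 was lost when libraries were scaled by size only and in 2 of the 3 fits on TPM. The correlation with the mean deviation of the 9 enzymes was negative for all 10 genes of this list, from -0.71 for Cyp27a1 to -0.18 for Mylip. Without WT replicate 4 and cKO replicate 4 it was 0.03 for Nr1h2, -0.11 for Nr1h3 and -0.54 for Cyp27a1.

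Of 12 fatty acid synthesis genes, 2 rose (Elovl6 and Me1) and 3 fell (Fasn, Fads1 and Fads2), 41.7% of the list against 28.3% of all genes, with a median of -0.35. The desaturase genes Fads1 and Fads2 were at 203 ± 30.8 and 196 ± 29.9 CPM in WT and at 146 ± 18.5 and 146 ± 11.3 CPM in cKO (SD, n = 5), with no overlap between genotypes. The calls of Elovl6 and Fasn were each lost in over 4 of the 10 fits that left out 1 animal. Of 13 genes of the isoprenoid branches, which draw on the same farnesyl diphosphate, Nus1 rose and Fntb fell (15.4%, against 28.3% of all genes), with a median of -0.04, and the call of Fntb was lost with RLE factors and in limma-voom. Of the listed paralogs, Idi2 had no counts, as given above, and Acat1, the mitochondrial thiolase, averaged 268 ± 22.1 CPM in the WT and 288 ± 11.8 CPM in the cKO libraries (SD, n = 5, log2 fold change 0.10, edgeR adjusted p = 0.274).

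**Figure D4:**
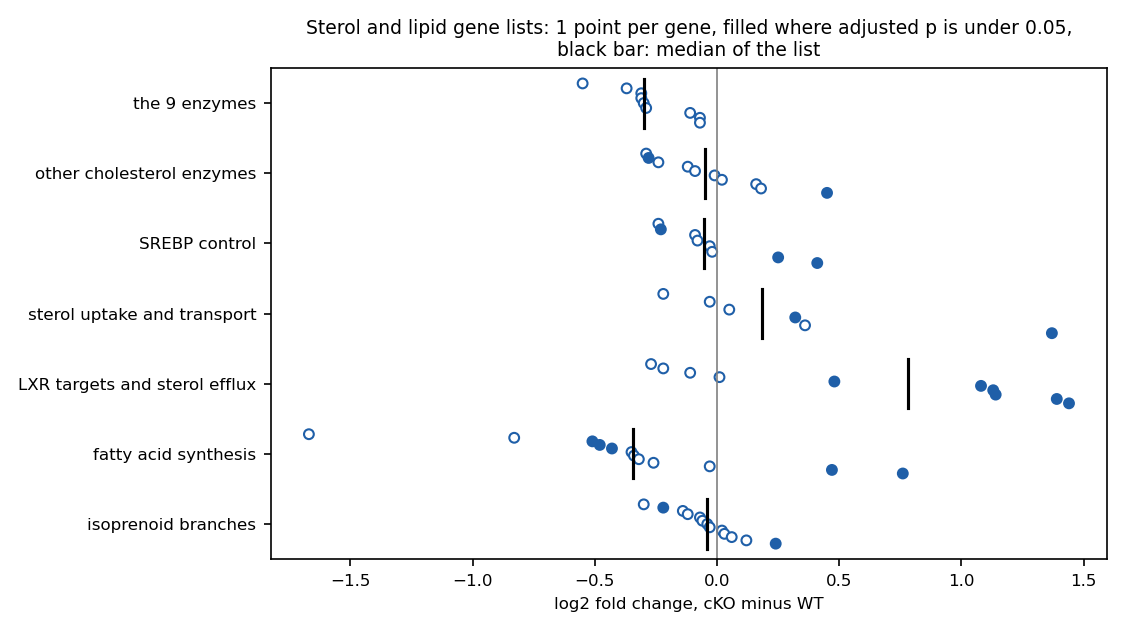
Log2 fold change of cKO against WT for each tested gene of 7 sterol and lipid gene lists, filled where the edgeR adjusted p is under 0.05, with the list median as a black bar. The 9 enzymes have no filled point and a median of -0.30, and the LXR and efflux list has 6 filled points, all to the right of 0, and a median of 0.78.

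Several lists of cell type markers moved with genotype, and some lay at an end of their genotype in WT replicate 4 or cKO replicate 4. For comparison with the counts of these lists, 15.6% of all genes were called higher in cKO, 12.7% lower and 28.3% in either direction. All 12 enterocyte markers rose (median 1.68), and their summed level was 2880 to 10900 CPM in WT and 12600 to 22500 CPM in cKO libraries, lowest in WT replicate 4. Of 15 proliferation genes, 12 fell and none rose, and their sum was 2590 to 3030 CPM in WT, highest in WT replicate 4, and 1920 to 2250 CPM in cKO. In cKO replicate 4 the enterocyte sum was 21400 CPM and the proliferation sum 1950 CPM, neither at an end of the cKO range. Markers of stem cells (4 of 5) and of Paneth cells (4 of 5) fell, those of enteroendocrine (3 of 6) and tuft cells (3 of 5) rose, and 0 of 7 goblet markers passed in edgeR. Among the 7 goblet markers, 3 had an unadjusted p under 0.05, against 40.5% of all genes. In DESeq2 1 of the 7 passed, against 28.7% of all genes, and in limma-voom 0, against 28.0%. The summed stromal markers were at 134 CPM in cKO replicate 4 against 16.2 to 31.5 CPM in the other cKO libraries and 23.4 to 74.9 CPM in WT, with 2 of 8 lower in cKO (25.0%). The summed immune markers were at 154 CPM in cKO replicate 4 against 41.1 to 94.0 CPM in the other cKO libraries and 83.3 to 160 CPM in WT. Of the immune markers, 1 of 8 was lower in cKO (12.5%, near the 12.7% of all genes). Within genotypes, 5 of the 8 stromal markers and the 3 myeloid markers of the immune list ran opposite to the 9 enzymes, with correlations to their mean deviation of -0.91 for Col1a2, -0.90 for Vim, -0.89 for Col3a1, -0.86 for Col1a1, -0.83 for Pdgfra, -0.89 for Lyz2, -0.76 for Cd68 and -0.60 for Adgre1. Without WT replicate 4 and cKO replicate 4 these 8 values lay between -0.93 (Lyz2) and -0.56 (Adgre1). For the other stromal markers Acta2, Myh11 and Pecam1 the correlation was -0.18, -0.09 and -0.17, and the other immune markers lay between -0.72 (Cd8a) and 0.18 (Jchain). The 12 enterocyte markers had values from -0.66 to -0.36 and the 15 proliferation genes from 0.19 to 0.85, and from -0.49 to 0.02 and from 0.06 to 0.71 without those libraries. No marker of these lists was at 0 in all libraries. The part of these shifts in the levels of the 9 enzymes was not tested.

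Clock genes were listed because sterol synthesis is known to follow the hour and feeding. Of 14 tested, 5 rose in edgeR (Npas2, Nr1d1, Nr1d2, Dbp and Hlf) and none fell (35.7%, against 15.6% of all genes higher and 28.3% in either direction). DESeq2 called 7 of the 14, against 28.7% of all genes, and these included Per2 and Cry1, both lower in cKO. Per2 had a log2 fold change of -0.47 (edgeR adjusted p = 0.0522, DESeq2 adjusted p = 0.025). Cry1 had -0.51 (edgeR adjusted p = 0.0732, DESeq2 adjusted p = 0.0432). The call of Npas2 was lost with RLE and upper quartile factors. Nr1d1 averaged 46.4 ± 8.36 CPM in the WT and 79.0 ± 20.1 CPM in the cKO libraries (SD, n = 5), and its correlation with the mean deviation of the 9 enzymes within genotypes was -0.84, and -0.68 without WT replicate 4 and cKO replicate 4. The other 13 clock genes had values from -0.69 for Npas2 to 0.70 for Cry1, among them -0.08 for Nr1d2, -0.07 for Arntl, 0.03 for Clock, 0.05 for Per3 and 0.08 for Tef. The part of the hour of collection in the levels of the 9 enzymes was not tested.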

How the data were processed

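Polyadenylated RNA of jejunal crypts was sequenced in 10 mice, 5 of each genotype, and the labels gave genotype and replicate number. Reads were mapped by the authors with STAR and assigned to genes of Ensembl release 95 (GRCm38) by RSEM, as run by nf-core/rnaseq. The authors deposited, per gene and library, expected counts, TPM, FPKM and effective lengths, and the counts were not scaled between libraries. RSEM splits reads shared by several genes, so genes with near-identical copies depend on that split. FPKM values were not used.

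In R 4.3.3, the deposited expected counts were rounded, filtered with filterByExpr of edgeR 4.0.16 (minimum count 10, minimum total count 15) and scaled by TMM. Genotype was the only term of the quasi-likelihood fit (glmQLFit with robust = TRUE, then glmQLFTest), with Benjamini-Hochberg adjustment over all 14719 genes and a threshold of 0.05. The study's own methods used DESeq2 with genotype and time, and time has 1 level here, so DESeq2 1.42.0 was an alternative. CPM are on the TMM-scaled library sizes. P-values set the difference between genotypes against the spread between single animals. The quasi-likelihood test gives no SE. Each SE of a log2 fold change was therefore calculated back from that fold change and its unadjusted p. The confidence intervals were built on these SEs, so SE and interval add no evidence beyond p. Totals of 27050455 to 31053622 gave at least 263 counts for each of the 9 enzymes in each library. Deposited TPM served to compare genes with each other and for fits with limma 3.58.1 on log2(TPM + 1) and log2(TPM + 0.1).

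For each gene, the deviation of log2(CPM + 0.5) from its genotype mean was taken in each library. Symbols came from GENCODE release 21 for mouse, and copies from BLAST 2.17.0 (at least 90% identity over at least 200 bases). Further alternatives were limma-voom, RLE and upper quartile factors, library size only, other filters on counts or TPM, unrounded counts, effective length as an offset, pseudogene counts added, a block for the replicate number, 1 surrogate variable (sva 3.50.0), and each animal left out in turn. The fits were tested on simulated counts in which each gene was drawn independently, so shared variation like that of the 9 enzymes was not covered. Genes named are the 9 enzymes, Arid3a, members of 18 lists from textbook knowledge, and 9 of the 10 genes whose deviations correlated best with those of the 9. Of the listed genes, 8 are not reported here and are in no count of a list. The 9 enzymes and the lists were chosen with earlier results of these data known.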

Additional observations from a re-analysis of the deposited data

Results flagged for a closer look

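A library far from the 4 others of its genotype was found in 4 of 40 groups of 5 libraries checked (the 9 enzymes, 10 other pathway enzymes and Arid3a in both genotypes), by Dixon's ratio above 0.71. Chance alone flags about 1 in 20 independent groups. These groups share their 10 libraries and many of the enzymes varied together, so that rate does not carry over to the count. In WT replicate 4, Sqle was at 103 CPM with the next WT library at 66.2 (ratio 0.734), and Lss at 48.2 CPM with the next at 31.5 (ratio 0.736). In cKO replicate 4, Msmo1 was at 49.0 CPM with the next cKO library at 59.7 (ratio 0.724), and Hsd17b7 at 16.2 CPM with the next at 21.4 (ratio 0.78). Both libraries also lay at the end of their genotype for all 9 enzymes.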

How the results depend on the processing

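The count of the 9 enzymes past the threshold was 0 in edgeR and 1, Sqle, under DESeq2, upper quartile factors and the 3 fits on log2 TPM, and 2, Fdft1 and Sqle, with library size only. The share of all genes past it was 28.3% in edgeR, 28.7% in DESeq2 and 31.6% with upper quartile factors. It was 28.1% to 32.8% in the 3 fits on log2 TPM and 37.9% with library size only. Of 135 values of single enzymes under the alternatives other than leaving out an animal, 128 stayed on the same side of the threshold and 7 moved past it, and none changed direction. The median of the 9 lay between -0.44 (library size only) and -0.23 (1 surrogate variable) under these alternatives. Leaving out 1 animal at a time gave 0 to 1 of the 9 past the threshold, medians of -0.38 to -0.17, and 3007 to 4684 genes overall. In those fits Hmgcs1 ran from -0.16 to 0.05 and Idi1 from -0.19 to 0.01. The 10 other enzymes gave 2 calls in edgeR, 4 with library size only and in each of the 3 fits on log2 TPM, 3 with upper quartile factors and with effective length as an offset, 1 with 1 surrogate variable, and 1 to 3 when animals were left out. Of all genes, 24.4% passed with effective length as an offset, 8.8% with 1 surrogate variable and 20.2% to 31.4% when animals were left out.

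With 1 surrogate variable 1296 genes passed in place of 4167. Directions reversed there for Hsd17b7 (0.05), Insig1 (0.03) and Srebf1 (0.03). Hsd17b7 was also at 0.00 in DESeq2. Tm7sf2 was at -0.05 with effective length as an offset, -0.11 with library size only, -0.02 with upper quartile factors and -0.15 in the 3 fits on log2 TPM. When animals were left out, Hsd17b7 ran from -0.08 to 0.07 and Tm7sf2 from -0.01 to 0.06, and Nsdhl reached 0.00 and Insig1 0.02. The causes were not tested. Sc5d, Insig2, Npc1l1, Abcg5, Abcg8, Me1 and Dbp passed the threshold in every alternative fitted. Calls of Abca1, Soat2, Elovl6, Fasn, Fntb, Npas2, Rnf139 and Scap were lost in 4 or more of the fits that left out 1 animal, and those of Nr1h3 (without cKO replicate 5) and Nus1 (without cKO replicate 1) in 1.

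The replicate number as a block left 3048 genes (20.7%), 0 of the 9 enzymes (median -0.29) and 1 of the 10 others, since the call of Lbr was lost, and Hsd17b7 was at 0.00. The numbers do not come from shared litters or days in the labels, and deviations of same-numbered libraries correlated at -0.16, 0.03, 0.09, -0.14 and -0.21, with 0 of 10 libraries closest to its own number. The precision is limited by 5 animals per genotype.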
